A study of Brassica rapa subsp. pekinensis with 2 samples.

Results

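The genes described here were abundant in fertile flower buds of Chinese cabbage and had no reads in sterile buds, and they carry an identifier without a name. They were chosen as the genes with a Bra identifier that had at least 100 RPKM (reads scaled by the authors for gene length and library total) in fertile buds and 0 in sterile buds. Genes named in the authors' tables, and genes in 3 short ranges of identifiers around an oleosin cluster, were left out by the rule. This gave 108 genes of 41019. Of the 162 genes at these levels, 54 were left out, 49 because they were named and 5 by their number alone. Because these RPKM values chose the genes, their levels and folds are given as a description, with no test.

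Both groups came from AB02, a male sterile AB line of Brassica rapa subsp. pekinensis whose sterility follows a nuclear locus with multiple alleles. The fertile group was 1 library of buds from plants of fertile genotype, and the sterile group was 1 library of buds from plants of sterile genotype. Plants of both groups were grown in a greenhouse from vernalized seed, and the sources used here do not give bud stage, plant age or the number of pooled plants. With 1 library per group, no difference below has a replicate check. Depth recovered from the values was 1803154 reads for fertile buds and 1567647 reads for sterile buds, if lengths are coding lengths, that is multiples of 3 bp. For a gene of 1 kb, a single read then equals 0.555 RPKM in the fertile library and 0.638 RPKM in the sterile one. Over the 27940 genes with at least 1 RPKM in either library, the median difference on the log2(RPKM + 1) scale, sterile minus fertile, was 0.17, so most genes lay slightly higher in the sterile library.

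A flower bud holds sepals, petals, anthers and pistil. Within the anther, the tapetum is the cell layer that feeds the developing microspores and supplies the pollen wall, and the microspores mature into pollen grains, which store large amounts of a limited set of mRNAs for germination and tube growth. Male sterile plants can lack pollen, the tapetum's products or both, depending on where development stops. In a whole bud, fewer cells of a type and less RNA per cell cannot be told apart. The bud label could not be checked independently here. The authors' tables named 225 genes, but these tables come from the same comparison. They include a list of genes at 0 in fertile or in sterile buds. The levels of a named pollen gene are therefore given as a description and are no check of the label. PPME1, a pectin methylesterase of the pollen tube wall, had 400.03 RPKM in Bra009265 and 168 RPKM in Bra028699 in fertile buds, and both copies were at 0 in sterile buds.

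Genes this abundant in fertile buds were rarely at 0 in sterile buds, and the reverse was not seen. Of the 2335 genes with at least 100 RPKM in fertile buds, 162 were at 0 in sterile buds, a share of 6.94%, and the 108 genes made up 4.63% of the 2335. Of the 2409 genes with at least 100 RPKM in sterile buds, 0 were at 0 in fertile buds, a share of 0% that describes these libraries alone. The lowest fertile value among those 2409 genes was 1.85 RPKM.

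The share of genes at 0 in the other library followed a different course in the 2 directions. Grouped by fertile RPKM, 21.1% of genes between 1 and 3 RPKM were at 0 in sterile buds, and 4.15% of genes between 30 and 100 RPKM. Above that level the share was larger again, at 6.13% between 100 and 300 RPKM, 7.65% between 300 and 1000 RPKM, and 15% of the 120 genes at 1000 RPKM or more. Grouped by sterile RPKM, the share at 0 in fertile buds went from 13.9% between 1 and 3 RPKM to 0.0643% between 30 and 100 RPKM, and no gene above that was at 0. All genes are counted in these shares, named ones included.

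**Figure D1:**
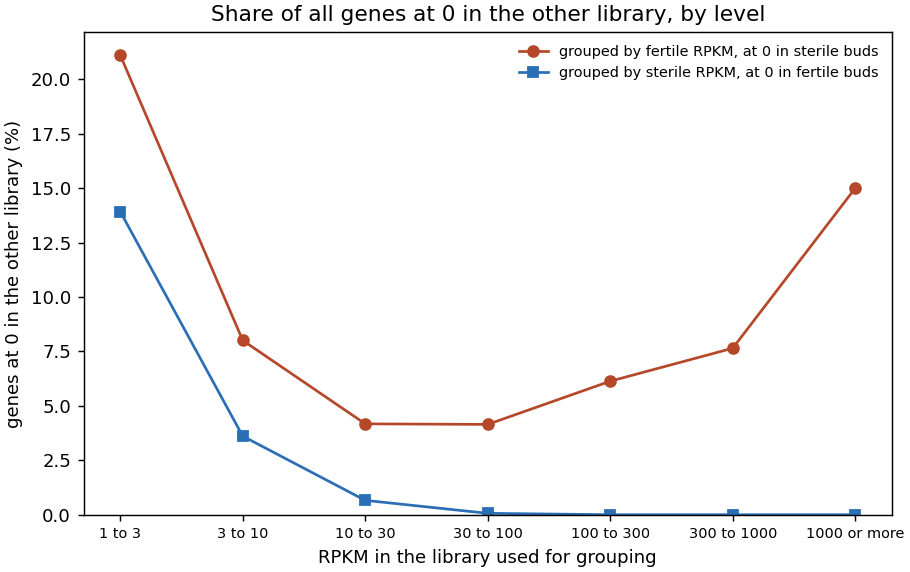
The x axis groups all genes by their RPKM in 1 library, and the y axis gives the percentage of each group at 0 in the other library. Points for fertile levels reach 15% at 1000 RPKM or more, while points for sterile levels are at 0 from 100 RPKM upwards.

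Together the 108 genes held 41903 RPKM in fertile buds, which was 3.34% of the summed RPKM of all genes. In reads they held 51119, or 2.83% of the fertile library (95% Clopper-Pearson interval 2.81% to 2.86%). This share rests on the library total recovered with steps of 3 bp, and would be a factor of 3 smaller with steps of 1 bp. Their 0 reads in the sterile library were required by the rule, so no limit is given for that share. The 54 left-out genes of the same levels held a similar share of fertile RPKM, 3.29%, with fewer genes. Intervals and limits cover counting error only, since sequencing reads are not independent molecules.

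The levels were uneven, with a short list of very abundant genes and a long tail near the lower limit. Fertile RPKM ran from 100.4 to 2235, with a median of 184 and quartiles of 140 and 431. The 10 genes at 1000 RPKM or more held 39.9% of the summed RPKM of the 108, the 24 genes between 300 and 1000 RPKM held 32.1%, and the 74 genes between 100 and 300 RPKM held 28%. The 16 highest genes held 50% of the sum. The left-out genes of the same levels reached higher, with a median of 284 RPKM and a maximum of 6991 RPKM.

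The highest level was shared by a pair of genes of different length. Bra036581 had 2235 RPKM in fertile buds, with a 95% Poisson counting interval of 2095 to 2381, and 0 in sterile buds. Bra013821 had 2231 RPKM (interval 2139.6 to 2326) and 0 in sterile buds. The counting interval of their ratio included 1, so the order of these 2 genes was not detectable at this depth, although Bra013821 rested on 2221 reads over 552 bp and Bra036581 on 955 reads over 237 bp. They stood apart from the next gene, Bra000244, at 1822 RPKM (interval 1680.2 to 1972) in fertile and 0 in sterile buds.

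The next places went mainly to very short genes. Bra000244, Bra023451, Bra016902 and Bra031425 lay between 1700.2 and 1822 RPKM with lengths between 186 and 228 bp, and for each step between these 4 genes the counting interval of the ratio included 1. Bra007665 followed at 1502 RPKM (interval 1460 to 1546), with 4657 reads over 1719 bp. Bra004900 had 1339.7 RPKM, Bra012212 had 1179.9 RPKM and Bra027081 had 1165 RPKM in fertile buds. Each of these genes was at 0 in sterile buds. Below Bra027081 there was a gap to Bra000438 at 879.7 RPKM (interval 848 to 913), with no overlap of the intervals.

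From place 11 to place 20 the genes declined gradually, from Bra000438 to Bra021436 at 640 RPKM. The genes between them were Bra023919, Bra034746, Bra036905, Bra030646, Bra040473, Bra005625, Bra038741 and Bra024450, from 768 down to 653 RPKM. Of the 107 steps between neighbouring places in the whole order, 6 had a 95% Clopper-Pearson interval of the ratio that excluded 1, and 101 had one that included it. The lowest of the 6 was the step from place 11 to place 12, where Bra000438 was 1.15-fold above Bra023919 (interval 1.01 to 1.3).

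**Figure D2:**
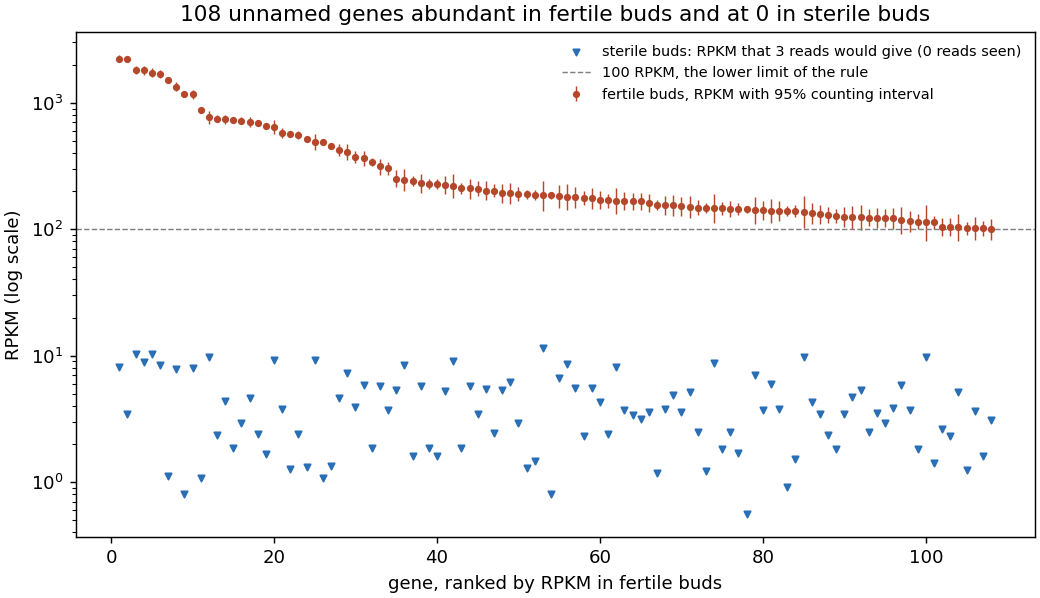
The x axis ranks the 108 genes by fertile RPKM and the y axis gives RPKM on a log scale. Circles with 95% counting intervals are the fertile library, falling from 2235 to 100.4, and triangles give the RPKM that 3 reads would have had in the sterile library, from 0.56 to 11.4.

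The lower limit cut through a continuous range of values. The lowest genes inside it were Bra017586 at 101 RPKM, Bra001268 at 101.3 RPKM and Bra040823 at 100.4 RPKM. Just under 100 RPKM and also at 0 in sterile buds were Bra010973 at 99.9 RPKM, Bra010024 at 98.9 RPKM and Bra022090 at 98.6 RPKM, all of them named genes. The counting interval of 11 of the 108 genes reached below 100 RPKM.

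The demand for 0 in sterile buds also left out genes with very few reads there. Among genes with at least 100 RPKM in fertile buds and under 10 RPKM in sterile buds, 34 had a minimum of 1 sterile read. A further 12 had a minimum of 2 and 10 had a minimum of 3. Genes at 10 RPKM or more in sterile buds were not counted, although a very short gene can reach that level with 3 reads. Lowest among these were Bra025355, with a fertile level of 400.5 RPKM and a sterile level of 0.347 RPKM, Bra040474, with 814 and 0.356 RPKM, and Bra003491, with 217 and 0.36 RPKM. For each of the 3, 1 read in sterile buds is the lowest number that gives both values.

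A count of 0 in sterile buds set a different limit for each of the 108 genes, since 3 reads are worth more RPKM in a short gene. This limit ran from 0.56 RPKM for Bra010624, the longest gene, to 11.4 RPKM for Bra021816, the shortest, with a median of 3.61 RPKM. At the fertile RPKM the sterile library would have held between 34.8 and 4395 reads of each gene, with a median of 184. The rule required the observed 0 for each of the 108 genes, so the bounds below are a description and allow nothing for that choice. These bounds set 3 reads for 0 and leave out the counting error of the fertile reads. They ran from 11.6-fold to 1465-fold lower in sterile buds, with a median of 61.4, and 36 genes had a bound of at least 100-fold. The largest bound was that of Bra012212, whose 95% counting interval had a lower end of 1191, and the smallest that of Bra031236, with a lower end of 9.

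The authors' deposited table of the comparison listed all 108 genes. With 0 sterile reads for each gene, the folds deposited there were proportional to fertile reads. They restate those reads and are not measured sizes of difference. Log2 fold changes of fertile over sterile in the authors' deposited table ran from 5.59 for Bra031236 to 12.57 for Bra012212, with a median of 8, and the highest q-value was 1.84e-05. Over all 41019 genes, 2.21% were listed there as higher in fertile buds, and nothing is read from this beside the 108, because the same values chose them.

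The 108 RPKM values rested on very different amounts of data. Since RPKM is made from reads and length, neither is independent of the rule, and both are given as a description. Reads in fertile buds ran from 40 for Bra031236 to 5055 for Bra012212, with a median of 212. Recovered lengths ran from 168 bp to 3420 bp, with a median of 529.5 bp, and 62 genes (57.4%) were shorter than 600 bp. The 54 left-out genes of the same levels had a median of 495 bp, with 59.3% under 600 bp. The 313 genes listed by the authors with 0 reads in sterile buds and less than 100 RPKM had a median of 1155 bp, but a gene at a low RPKM needs length to gather enough reads to be listed.

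Short genes filled the top of the order. The 10 genes at 1000 RPKM or more had a median length of 238.5 bp, against 583.5 bp for the 24 genes between 300 and 1000 RPKM and 541.5 bp for the 74 below. Ranked by reads, only 3 of these 10 genes stayed among the first 10, namely Bra012212 with 5055 reads over 2376 bp, Bra007665 with 4657 reads and Bra013821 with 2221 reads. Bra000438 came next after Bra007665 by reads with 2841. At the other end, Bra021816 and Bra032138 had the same level, 185 RPKM, from 56 reads over 168 bp and from 801 reads over 2403 bp. The shortest genes were Bra021816 and, at 186 bp each, Bra000244 and Bra016902. The longest were Bra010624 with 885 reads, Bra032138 and Bra012212.

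**Figure D3:**
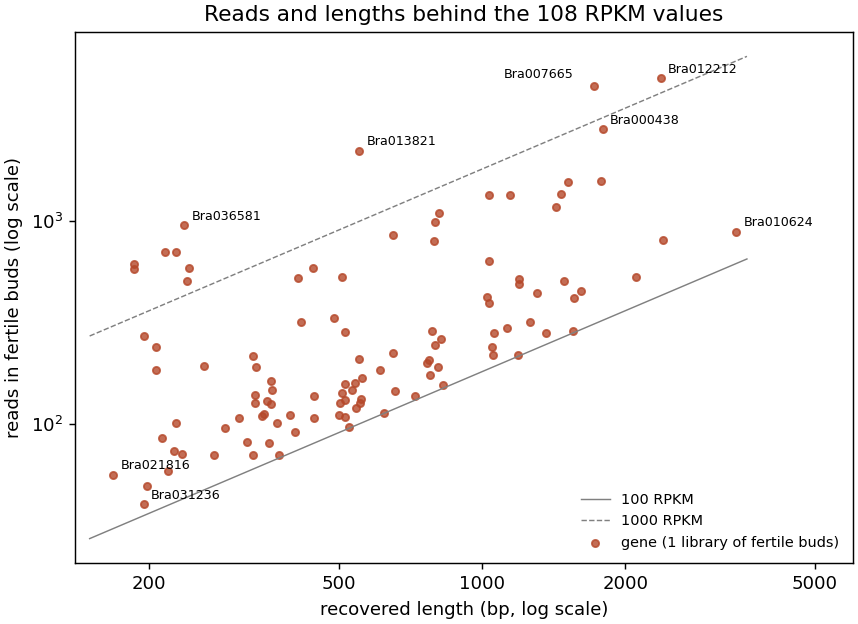
The x axis gives the recovered length in bp and the y axis the reads in the fertile library, both on log scales, with 1 point per gene and lines of equal RPKM at 100 and 1000. Genes at 1000 RPKM or more lie on or above the upper line, most of them between 186 and 243 bp, and Bra013821, Bra007665 and Bra012212 are longer.

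Some genes had exactly the same recovered length as another, and whether they share sequence was not tested. Brassica rapa descends from a polyploid ancestor and many of its genes exist in several copies, between which reads may have been split in counting. Of the 108 genes, 30 shared a length with at least 1 other, in 14 lengths and 19 pairs. In 6 of the 19 pairs (31.6%) the 95% counting interval of the ratio of RPKM included 1, beside 24.2% of all 5778 pairs of the 108 genes. The difference between these shares was not tested, and whether an interval includes 1 also depends on the reads of the pair.

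A few equal-length pairs had close levels. Bra000244 and Bra016902, both 186 bp, had 1822 and 1735 RPKM, a ratio of 1.05 (interval 0.936 to 1.18). Bra001269 and Bra020716, both 1194 bp, had 240.1 and 228 RPKM, a ratio of 1.05 (interval 0.929 to 1.19). In other pairs the levels were far apart. Bra013821 and Bra000652, both 552 bp, had 2231 and 209 RPKM, a ratio of 10.7 (interval 9.26 to 12.4).

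Identifiers in this annotation are numbered, and neighbouring numbers are treated here as neighbours in the annotation's order. Genome positions were not used here. The 108 genes were spread over the numbering, with a median step of 227 between successive genes and a largest step of 2630. Of 42 blocks of 1000 numbers, 37 held at least 1 of the genes and none held more than 7. Direct neighbours were few, since 10 genes (9.26%) stood in 5 runs of consecutive numbers, each run a pair. Allowing steps of up to 2 gave 12 genes in 6 runs, and steps of up to 5 gave 19 genes in 9 runs.

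The 5 consecutive pairs differed in how alike their genes were. Bra029682 and Bra029683 had 454 and 570.4 RPKM in fertile buds over 1431 and 1512 bp. Bra001268 and Bra001269 had 101.3 and 240.1 RPKM over 1188 and 1194 bp, and the next gene, Bra001270, with 1266 bp, had 15.8 RPKM in fertile and 0 in sterile buds. Bra031316 and Bra031317 had 145 and 183 RPKM over 765 and 288 bp. The first 2 pairs thus joined genes of nearly equal length, and the last did not.

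In the remaining pairs 1 gene was much more abundant than its neighbour. Bra012211 had 139 RPKM beside Bra012212 at 1179.9 RPKM, and Bra000439 had 191 RPKM beside Bra000438 at 879.7 RPKM. The genes up to 2 numbers away from Bra000438 and Bra000439 were at 0 in both libraries. Those around Bra029682 and Bra029683 were between 8.47 and 80.9 RPKM in fertile buds and between 11.4 and 66.6 RPKM in sterile buds, so the difference between the libraries stopped at the edges of that pair.

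Wider runs held further genes of the same direction outside the 108. Bra001849 had 169 RPKM and Bra001851 had 201 RPKM in fertile buds, and Bra001850 between them had 60.4 RPKM in fertile and 0 in sterile buds. These 3 genes had 798, 786 and 789 bp. The next gene, Bra001852, with a minimum length of 786 bp, was abundant in both libraries, with 2530 RPKM in sterile and 1661 RPKM in fertile buds, and its fertile over sterile ratio was 0.657 (interval 0.622 to 0.693). From Bra031316 to Bra031320, 3 genes belonged to the 108, Bra031318 was at 0 in both libraries, and Bra031319 had a fertile level of 408 RPKM and a sterile level of 14.8 RPKM. That sterile level stands for a minimum of 3 reads over a minimum length of 129 bp. Bra031320, at 148 RPKM over 774 bp, was close in level and length to Bra031316.

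Looser runs joined genes with unlike neighbours between them. Bra036017 and Bra036020, of 363 and 345 bp, had 225 and 175 RPKM in fertile buds, and Bra036018 between them was alike in both, with 20.2 RPKM (fertile) and 20.5 RPKM (sterile). Bra018837 and Bra018841 had 134 and 102 RPKM, with Bra018839 between them at 13.7 and 14.6 RPKM. Bra030118 and Bra030122 had 127 and 168 RPKM, and none of the 3 genes between them exceeded 5.42 RPKM in either library.

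**Figure D4:**
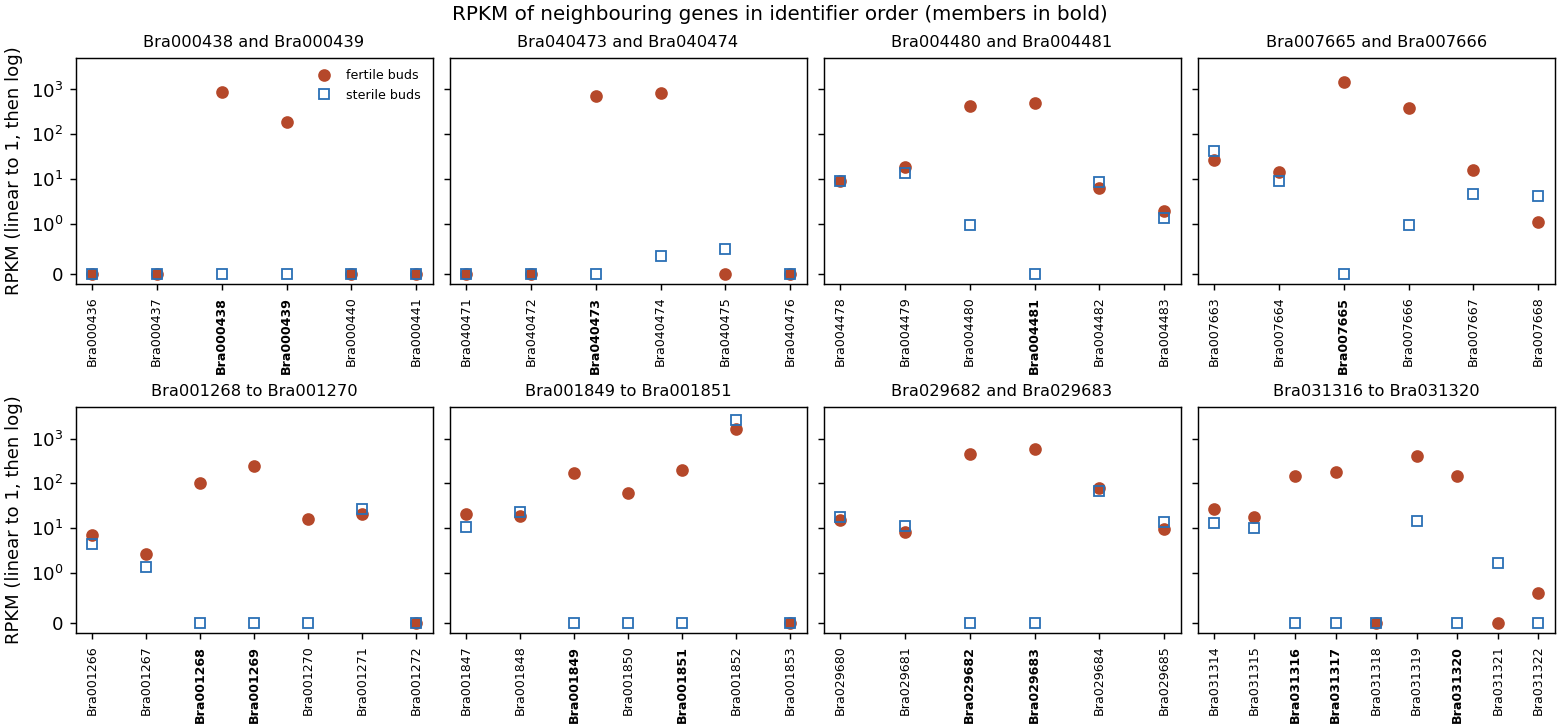
Each panel shows genes in the order of their identifiers (x axis) with RPKM in fertile (circles) and sterile buds (squares) on the y axis, linear up to 1 and logarithmic above, with genes of the 108 in bold. In the upper row, 2 adjacent genes per panel lie between 191 and 1502 RPKM in fertile and at or below 0.98 RPKM in sterile buds, while the genes around them reach at most 42.6 RPKM in either library.

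The genes next to the 108 were not chosen by the rule, and some of them had very large differences. Directly adjacent numbers held 204 genes outside the 108, of which 135 had at least 1 RPKM in either library. On the log2(RPKM + 1) scale, 27 of the 135 (20%) were lower in sterile buds by at least 1, against 14.5% of all 27940 genes kept, and 13 (9.63%) were higher, against 11.5%. Their median difference was 0.24, near the 0.17 of all genes kept. At 0 in sterile buds were 17 of the 135 (12.6%), against 8.03% of all genes kept. The differences between these shares were not tested.

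At a larger size the gap to all genes kept was wider. By at least 4 on the same scale, a size chosen after the values were seen, 16 of 135 adjacent genes (11.9%) were lower in sterile buds, against 2.47% of all genes kept. At a distance of 2 numbers the share was 3.52%, and from 3 to 10 numbers it lay between 0% and 2.68%. The 16 genes stood beside 15 of the 108, had between 15.8 and 814 RPKM in fertile buds, and 9 of them were at 0 in the sterile library. The authors' deposited table held 14 of the 16, beside 2.21% of all genes listed there as higher in fertile buds, and nothing is read from this since the 16 were picked on the same values.

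**Figure D5:**
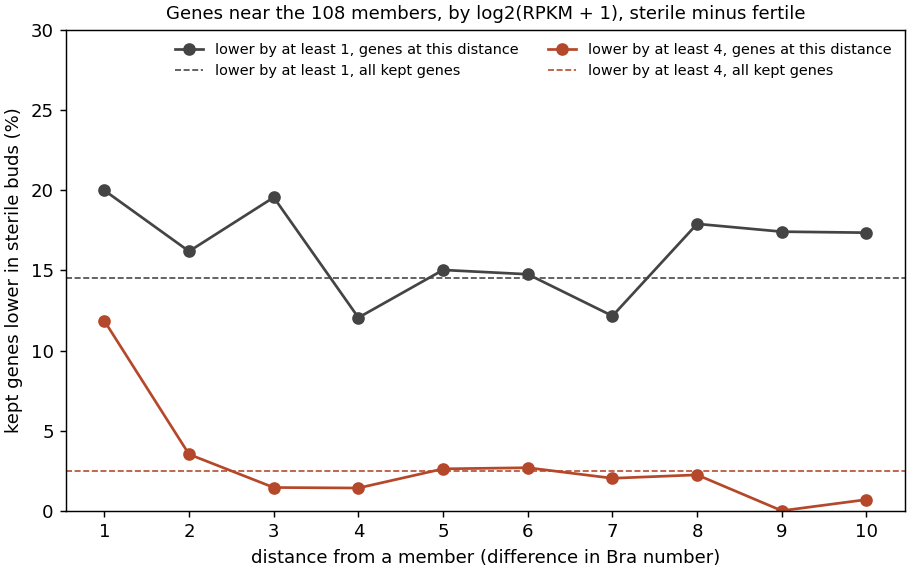
The x axis gives the distance from 1 of the 108 genes in identifier numbers and the y axis the percentage of kept genes at that distance that were lower in sterile buds by at least 1 (grey) or at least 4 (red) on the log2(RPKM + 1) scale, with dashed lines for all kept genes. The red points start at 11.9% at distance 1 and reach 3.52% at distance 2, near the dashed line at 2.47%.

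A pair of lengths recurred in 4 neighbourhoods, 3 of which held a gene of the 16. In each, a gene of 651 bp stood beside a gene of 1719 to 1791 bp, and this was noticed after the values were seen. For Bra040474, Bra004480 and Bra007666 the length and the reads are minimum values, so that the match of these 3 lengths holds only if the minimum is the true length. In the first, Bra000438 (1791 bp) and Bra000439 (651 bp) both belonged to the 108. In the second, Bra040473 (651 bp) had 724 RPKM in fertile and 0 in sterile buds, and Bra040474 (1791 bp) had 814 and 0.356 RPKM. For Bra040474 these values are at least 2628 fertile reads and 1 sterile read, and the ratio was 2285 (interval 410 to 90277).

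In the other 2, the longer gene belonged to the 108 and the shorter one had a minimum of 1 read in sterile buds. Bra004481 (1779 bp) had 488 RPKM in fertile buds and 0 in sterile ones, and Bra004480 (651 bp) had 421 and 0.98 RPKM, a ratio of 429 (interval 76.7 to 16997). Bra007665 (1719 bp) had 1502 and 0 RPKM, and Bra007666 (651 bp) had 395 and 0.98 RPKM, a ratio of 403 (interval 72 to 15967). All 8 genes were above 190 RPKM in fertile buds and at or below 0.98 RPKM in sterile buds. Each was either 1 of the 108 or 1 of the 16, so these levels were partly fixed by the choice of genes.

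Genes under 1 RPKM in both libraries were left out of the search for this pair of lengths, and a minimum length may be shorter than the true one. Among the 27935 genes kept with a recovered length, 64 had a length, exact or minimum, of 651 bp. Of these, 5 stood beside a gene of 1719 to 1791 bp. The remaining one, Bra014164 beside Bra014163, was low in both libraries, with 6.82 RPKM (fertile) and 3.92 RPKM (sterile), and Bra014163 at 0.937 and 1.8 RPKM. The levels within the 4 neighbourhoods were not alike. The longer gene was 4.61-fold above the shorter one in RPKM for Bra000438, 3.8-fold for Bra007665, 1.16-fold for Bra004481 and 1.12-fold for Bra040474. The lengths alone do not show that these genes share sequence, and no sequence was used here.

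Named genes stood within 2 numbers of 4 of the 108. Bra008228 (AT1G75870), described in the authors' table as expressed in pollen, sperm cells and several floral organs, had 283 RPKM in fertile and 0 in sterile buds. Next to it, Bra008229 had 228 RPKM and 0, and on the other side Bra008230 had 239.5 RPKM and 0.386 RPKM, so that 3 consecutive genes were at 228 RPKM or more in fertile buds and at or below 0.386 RPKM in sterile buds. Bra032140 (GGPS2), a geranylgeranyl diphosphate synthase of isoprenoid synthesis, had 18.9 RPKM in fertile and 0 in sterile buds, near Bra032138 at 185 RPKM.

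Copies of AT5G47000, a peroxidase gene, were the other named neighbours, namely Bra017514 and Bra024972. Bra017514, with 65.1 RPKM in fertile and 0 in sterile buds, stood beside Bra017515 at 123 and 0 RPKM over 543 bp. Bra024972, with a fertile level of 82.9 RPKM and a sterile level of 2.43 RPKM, was followed by Bra024973 at 18.1 RPKM, Bra024974 at 166 RPKM and Bra024975 at 89.1 RPKM, all at 0 in sterile buds, with lengths of 582, 561 and 585 bp. Bra022090, the last copy, with 98.6 RPKM, had beside it Bra022089 at 22.1 RPKM and 576 bp, also at 0 in sterile buds. Each of the 3 copies had at least 1 neighbour of 543 to 585 bp that was at 0 in sterile buds, a length range read from these same genes. The lengths of Bra024973 and Bra022089 are minimum values. Bra017515 and Bra024974 were at 0 by the rule, and 8.03% of all genes kept were at 0 in sterile buds. On the far side of Bra022090 the gene Bra022091 had 11.5 and 10.9 RPKM.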

How the data were processed

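RNA of 1 fertile and 1 sterile bud library was sequenced. The submitters' processing notes name TopHat. Version, build, annotation, counter and strand use are not given in the sources used here. Values deposited by the authors were RPKM per gene and a comparison holding log2 fold changes with p-values and q-values (names per the file headers), for which no test is stated. Their other tables served for names, with p-values left unused. The RefSeq table of assembly CAAS_Brap_v3.01 named 0 of the 108 genes.

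For listed genes at 0 in 1 library, the deposited fold was proportional to reads, which gave whole reads within 9.19e-11 (tolerance 0.0001). Lengths and totals follow with steps of 3 bp, and would be a factor of 3 shorter and larger with steps of 1 bp. The 108 genes have exact reads. For others, the lowest read numbers that fit both RPKM values are used, a minimum. Recovery was run on simulated data with known reads and lengths. These were built with steps of 3 bp and folds proportional to reads, so neither assumption was tested. Intervals are 95%, Poisson for levels and Clopper-Pearson for ratios and shares, and 3 reads stand for 0. Differences use log2(RPKM + 1), which understates low genes, for genes of at least 1 RPKM in either library. No p-value was computed with 1 library per group. Named were the 20 highest genes, runs, both sides of the limits, extreme lengths and reads, and named neighbours, and the adjacent genes lower by at least 4 were added after their values were seen. The genes, lists and tests were chosen with earlier results of these data known. Python 3.11.15, numpy 2.4.6, pandas 2.3.3 and scipy 1.17.1 were used.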

Additional observations from a re-analysis of the deposited data

How the results depend on the processing

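No paired analysis was possible because each group had 1 library, and no library could be left out. The number of genes was 173 with a limit of 50 RPKM and 47 with 200 RPKM, 125 and 139 when up to 1 RPKM or 3 reads in 1 kb were allowed in sterile buds, and 162 with no gene left out. Their share of fertile RPKM was 3.71% and 2.64% at the limits of 50 and 200 RPKM, and 6.63% with no gene left out. The median fold bound was 184 with 1 read in place of 0, and 70.7 with the sterile library scaled by the median ratio of 1.15. The median length was 176.5 bp in steps of 1 bp. Runs with steps of up to 5 held 19 genes. Without the filter on low values, 13.2% of adjacent genes were lower by at least 1, against 9.85% of all genes. The alternatives to the larger size were chosen after seeing the data. The share of genes lower by at least 4 was 7.04% within 2 numbers and 3.89% within 5, 5.19% with a pseudocount of 5 (1.06% of all genes), 7.84% without the filter (1.68% of all genes), and 9.85% without the 3 adjacent genes of the repeated pair of lengths. Of 31 alternatives, 17 were labelled as the same and 14 as moved, and a turn of direction was not assessed. The labels followed unlike rules. Counts of genes and shares of adjacent genes were allowed a wide change, so 162 genes were labelled as the same as 108. The share of RPKM and the fold bound had to stay within counting error. Shares of adjacent genes were labelled without regard to all genes kept. Within 5 numbers, 16.5% were lower by at least 1, labelled as the same, against 14.5% of all genes kept. The smaller shares within 2 and 5 numbers follow from the lower shares at those distances. For the other values that moved, the cause was not tested beyond the change of setting itself.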
